A study of Mus musculus with 2 samples.

Results

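The genes described here were 8 complement genes, taken by name from the 35208 gene rows of a single-cell cDNA matrix of inflamed mouse ear skin: C1qa, C1qb and C1qc, C3, C4b, Cfb, C3ar1 and C5ar1. All 8 had a row and reads. Complement is a cascade of secreted proteins in which C1q, built from the chains of C1qa, C1qb and C1qc, binds antibody on a surface and starts the classical pathway, which cleaves C4 (encoded in the mouse by C4b) and then C3. Factor B, the product of Cfb, is the catalytic part of the alternative pathway convertase that cleaves more C3. The released fragments C3a and C5a act on leukocytes through the receptors C3ar1 and C5ar1, and in skin the components can be made locally as well as arrive from plasma.

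Ear skin cells came from WT and Ccr2-/- mice on the BALB/c background, the latter without the chemokine receptor that brings classical monocytes into tissue from the blood. All mice were sensitised with 300 µg of an anti-TNP IgE given intravenously and a day later challenged in the ear with 10 µg of TNP-OVA, the hapten coupled to ovalbumin, which elicits IgE-mediated chronic allergic inflammation (IgE-CAI). Ears were taken on day 3 or on day 5 of the response, and the 4 resulting groups of each genotype and day were each stained with its own hashtag antibody and pooled into 1 cDNA library. There was 1 pool per genotype and day, no unchallenged skin was in the library, and the number of mice in a pool is not given in the sources used here.

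In all, 7118 cells were kept and assigned to a pool, 1543 and 1037 of them from WT skin on days 3 and 5 and 2191 and 2347 from Ccr2-/- skin on days 3 and 5. Lists of 4 values follow this order of pools throughout. The median depth was 39778, 48232, 34410 and 18632 reads per cell. Cells were gated by marker lists that held none of the 8 genes, which gave 464, 447, 140 and 102 macrophage-gated cells, 390, 307, 812 and 641 fibroblast-gated cells, 61, 9, 398 and 776 neutrophil-gated cells and 64, 24, 49 and 47 endothelial-gated cells. The summed level of the 7 macrophage markers was 8034 to 8840 CPM (reads of a gene scaled to a fixed total of all reads in the group) in macrophage-gated cells and 42.0 to 686 CPM in the other gated types named here. The 7 fibroblast markers summed to 36424 to 61306 CPM in fibroblast-gated cells, 579 to 817 CPM in macrophage-gated cells and 665 to 838 CPM in endothelial-gated cells, so that reads of another cell type were present at a low level in every gate. The WT day 5 neutrophil-gated group, with 9 cells, is given by value only and entered no test. Ccr2, the deleted gene, stood at 962 and 727 CPM in the WT macrophage-gated cells and at 100.04 and 93.2 CPM in the Ccr2-/- ones.

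All 8 genes lie on the minus strand of GRCm38 (GENCODE M21). C1qb (chr4:136880129-136886187), C1qc (chr4:136889804-136893065) and C1qa (chr4:136895917-136898803) form a cluster on chromosome 4. C4b (chr17:34728380-34743882), Cfb (chr17:34856374-34862518) and C3 (chr17:57203970-57228136) are on chromosome 17, C3ar1 (chr6:122847138-122856161) is on chromosome 6 and C5ar1 (chr7:16246743-16259540) on chromosome 7. The exons of Cfb overlap those of Gm20547, a protein-coding gene model at chr17:34856412-34882042 that also reaches into the C2 locus, over 2246 bases, which is 79.5% of the exonic bases of Cfb. Reads of Gm20547 amounted to 23.7% to 24.0% of the Cfb reads in the fibroblast-gated cells of the 4 pools, so that the Cfb counts may be a part of the reads from that locus. C4a, a close relative of C4b 65209 bases away, had 2.08 to 3.42 CPM in fibroblast-gated cells, and reads from sequence common to both genes cannot be assigned with certainty.

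The DNA before the start sites of C1qb, C3 and C3ar1 is shown because these genes represent the 3 patterns found below: C1q in macrophage-gated cells, C3 in fibroblast-gated cells and a receptor in macrophage-gated cells. RefSeq sequences (GRCm38.p6) were at hand for 5 of the 8 members, and these are the 3 whose printed windows lie before the start sites of both RefSeq and GENCODE. Capitals mark matches on either strand to 4 motifs chosen after the sequences had been seen: TTGCNNAA (C/EBP-type), TGANTCA (AP-1), GAGGAA (ETS-type purine core) and an NF-kB-type motif.
C1qb, chr4:136886205-136886450, minus strand: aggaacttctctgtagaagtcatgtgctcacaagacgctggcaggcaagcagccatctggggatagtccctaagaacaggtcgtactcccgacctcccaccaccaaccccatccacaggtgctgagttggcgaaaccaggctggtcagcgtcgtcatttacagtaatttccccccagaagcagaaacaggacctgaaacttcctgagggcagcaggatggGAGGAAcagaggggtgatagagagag
C3, chr17:57228141-57228386, minus strand: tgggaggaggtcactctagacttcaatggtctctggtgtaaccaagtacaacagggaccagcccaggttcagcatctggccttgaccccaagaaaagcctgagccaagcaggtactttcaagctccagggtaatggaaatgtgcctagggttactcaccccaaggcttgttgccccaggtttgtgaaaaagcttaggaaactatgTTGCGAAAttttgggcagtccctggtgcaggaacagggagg
C3ar1, chr6:122856162-122856407, minus strand: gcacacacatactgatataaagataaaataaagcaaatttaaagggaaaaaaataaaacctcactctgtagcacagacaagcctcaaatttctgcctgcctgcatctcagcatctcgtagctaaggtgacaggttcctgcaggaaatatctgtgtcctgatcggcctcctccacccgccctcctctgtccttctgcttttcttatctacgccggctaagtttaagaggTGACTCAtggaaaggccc
Each held 1 match: GAGGAA in C1qb starts 30 bases before the RefSeq start site, TTGCGAAA in C3 starts 45 bases before it and TGACTCA in C3ar1 starts 22 bases before it. In windows of the same length, TTGCNNAA was found in 9.48%, TGANTCA in 6.69%, GAGGAA in 22.9% and the NF-kB-type motif in 1.18% of 32851 RefSeq promoters. A match is a description of the letters only.

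The first question was which cells carried each gene. The 3 C1q genes were macrophage genes in every pool: macrophage-gated cells made up 30.1%, 43.1%, 6.39% and 4.35% of the cells and held 93.0%, 95.3%, 91.1% and 95.6% of the C1qa reads. C3, C4b and Cfb were carried mostly by fibroblast-gated cells, with 83.8% to 94.9% of the C3 reads, 70.9% to 89.8% of the C4b reads and 78.0% to 93.2% of the Cfb reads. C3ar1 reads were in macrophage-gated cells (74.4% to 95.1%), whereas the C5ar1 reads lay in macrophage-gated or neutrophil-gated cells depending on the pool. These shares depend on how many cells of each type a pool held as well as on the level per cell.

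**Figure D1:**
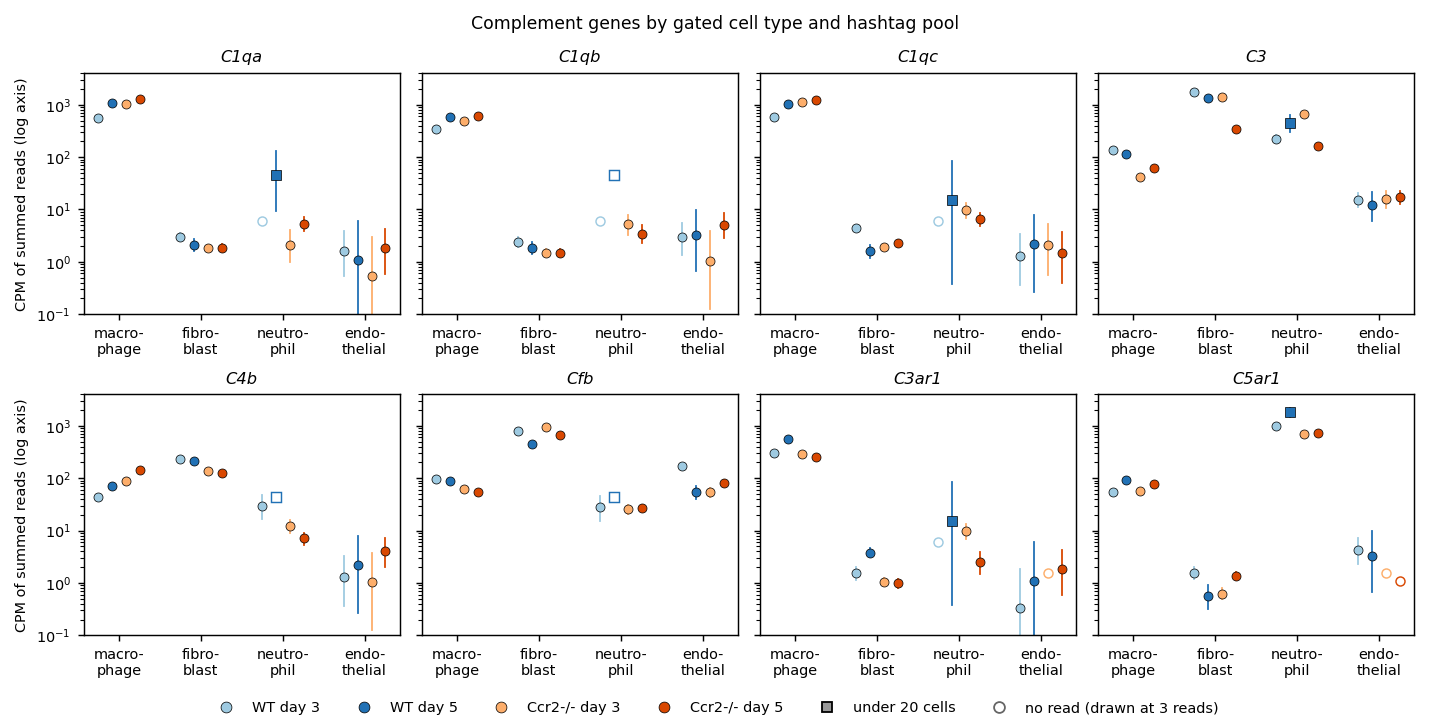
CPM of summed reads (log axis) of each gene in 4 gated cell types, with 1 point per hashtag pool and exact Poisson 95% intervals as lines; squares mark the group of 9 cells and open symbols groups with no read, drawn at the level of 3 reads. In every pool C1qa, C1qb, C1qc and C3ar1 stood highest in macrophage-gated cells, C3 and Cfb in fibroblast-gated cells and C5ar1 in neutrophil-gated cells, and C4b stood highest in fibroblast-gated cells except in Ccr2-/- day 5, where 1 macrophage-gated cell decided the order (114 CPM without it, against 126 CPM in fibroblast-gated cells).

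**Figure D2:**
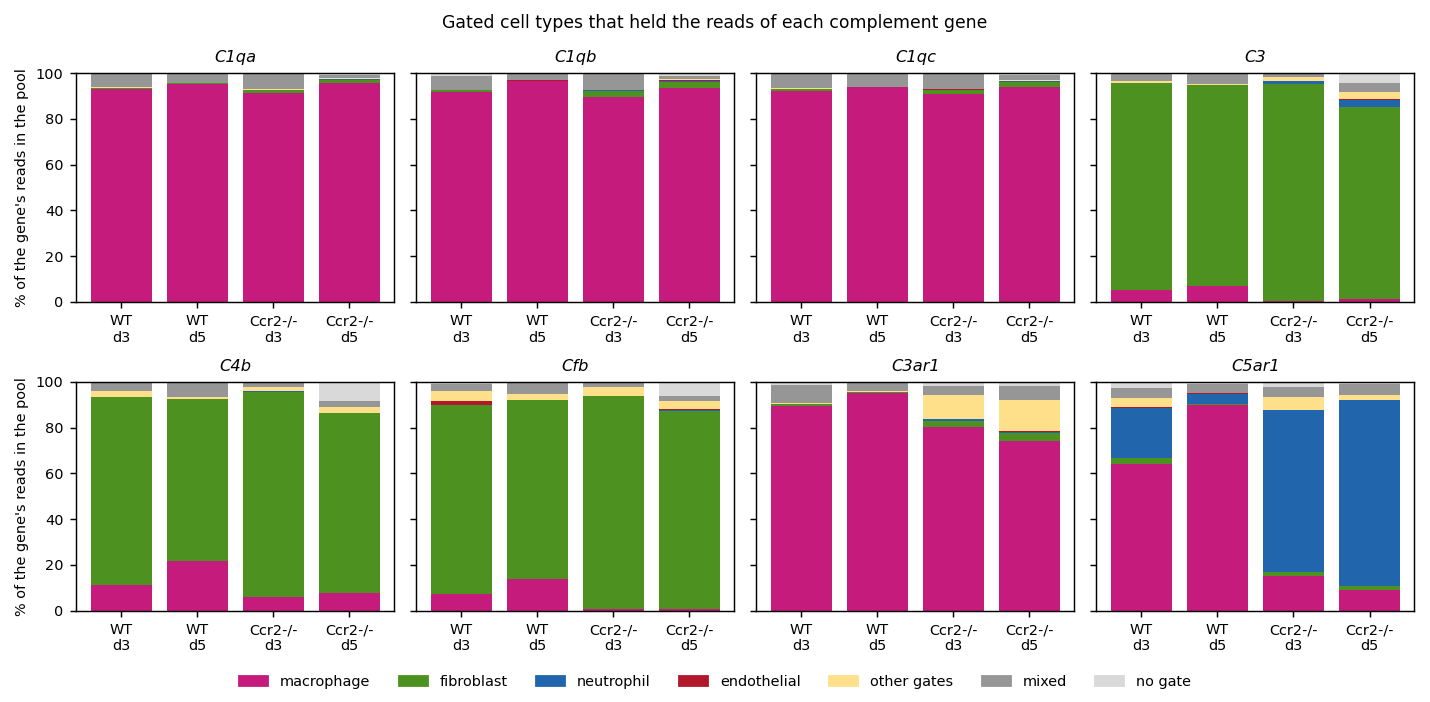
Percentage of each gene's reads in a pool (vertical axis) held by each gated cell type, by pool. Macrophage-gated cells held 64.1% and 89.8% of the C5ar1 reads in WT and 15.3% and 9.01% in Ccr2-/- skin, where neutrophil-gated cells held 70.9% and 81.4%.

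C1qa, the gene of the A chain of C1q, had 569, 1087, 1053 and 1272 CPM in macrophage-gated cells. In fibroblast-gated cells it had 3.02, 2.12, 1.84 and 1.86 CPM. WT day 3 macrophage-gated cells were thus the lowest of the 4 pools, and every macrophage value lay far above every fibroblast value. C1qb had 339, 573, 500.0 and 604 CPM in macrophage-gated cells and C1qc 575, 1031, 1106 and 1217 CPM, again lowest in WT day 3. The C1q genes did not exceed 4.37 CPM in fibroblast-gated cells, 5.14 CPM in endothelial-gated cells and 9.68 CPM in neutrophil-gated groups of at least 20 cells. In WT day 3 neutrophil-gated cells no read of any C1q gene was found, which allows up to 5.92 CPM (3 reads).

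When each cell was thinned to 5000 reads, C1qa was detected in 29.3%, 57.7%, 54.9% and 51.5% of macrophage-gated cells. The same share was 0.645% to 1.82% in fibroblast-gated cells, taken here as a background level, and the source of those reads was not tested. Median depths before thinning were 48202 to 67789 reads for macrophage-gated and 67844 to 124087 reads for fibroblast-gated cells. All 3 C1q genes were found together in 23.1%, 46.6%, 39.8% and 38.6% of macrophage-gated cells, and none of them in 61.8%, 28.6%, 40.6% and 41.6%. The macrophage-gated cells were therefore a mixture of cells with and without C1q reads, and WT day 3 had the smallest share with all 3.

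In the paired comparison of macrophage-gated with fibroblast-gated cells over the 4 pools (edgeR quasi-likelihood test with pool as a block, Benjamini-Hochberg adjustment over all genes tested), 41.8% of 19437 genes passed an adjusted p of 0.05 (17.6% higher and 24.2% lower in macrophage-gated cells), and 7 of the 8 complement genes did (5 higher and 2 lower). C1qa was higher in macrophage-gated cells by a log2 fold change of 8.65 ± 0.40 (SE; edgeR adjusted p = 8.957e-06), C1qb by 7.98 ± 0.32 and C1qc by 8.51 ± 0.49. C3ar1 was higher by 7.62 ± 0.23 (edgeR adjusted p = 2.765e-06) and C5ar1 by 5.99 ± 0.38. C3 was lower in macrophage-gated cells, with a log2 fold change of -3.85 ± 0.41 (edgeR adjusted p = 0.0003991), and so was Cfb with -3.38 ± 0.26. C4b missed the threshold, with a log2 fold change of -1.25 ± 0.42 (edgeR adjusted p = 0.05142), and passed it without Ccr2-/- day 5 (-1.66, edgeR adjusted p = 0.01671) and with DESeq2 (-1.22, adjusted p = 0.005214). Only the sums of the 4 pools entered the test. Its p-values thus measure how the difference between the cell types varied over pools that also differ in genotype and day.

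**Figure D3:**
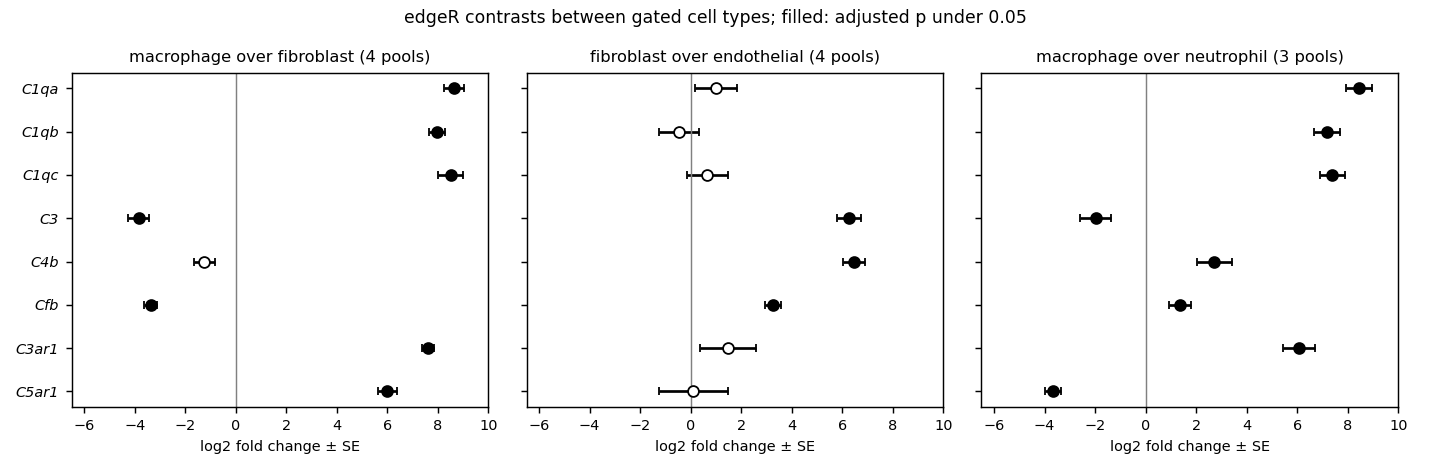
Log2 fold change with SE (horizontal axis) of the 8 genes in 3 comparisons of gated cell types, from edgeR with pool as a block; filled points passed an adjusted p of 0.05. The C1q genes and C3ar1 lay far to the macrophage side against both fibroblast-gated and neutrophil-gated cells, and C3, C4b and Cfb to the fibroblast side against endothelial-gated cells.

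C3, the component on which all pathways converge, had 1740, 1317, 1415 and 346 CPM in fibroblast-gated cells. Ccr2-/- day 5 stood apart from the other 3 pools, which lay within 1317 to 1740 CPM. The level per cell showed the same: the median fibroblast-gated cell had 899, 752, 906 and 89.4 CPM of C3, and the share with a C3 read at 5000 reads was 73.0%, 74.8%, 78.3% and 47.1%. The Ccr2-/- day 3 value was 4.09 times the Ccr2-/- day 5 value, and the WT day 5 value 3.80 times the Ccr2-/- day 5 value. Between the WT pools the ratio of day 3 to day 5 was 1.32, and within day 3 the ratio of WT to Ccr2-/- was 1.23. There was no test within a genotype or a day. In the additive model of genotype and day, the C3 genotype effect had a log2 fold change of -1.08 ± 0.41 (SE; edgeR adjusted p = 0.2411) and the day effect -1.22 ± 0.41 (edgeR adjusted p = 0.7932).

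C4b had 230, 211, 137 and 126 CPM in fibroblast-gated cells. In summed reads both WT pools were above both Ccr2-/- pools, by 1.68 times on day 3 and by 1.67 times on day 5. Within each genotype day 5 was slightly below day 3. The mean over cells kept WT above Ccr2-/- but put day 5 above day 3 in both genotypes. The genotype effect was a log2 fold change of -0.72 ± 0.09 (SE; edgeR adjusted p = 0.09562), which did not pass, whereas DESeq2 on the same sums gave -0.73 with an adjusted p of 6.998e-05. Macrophage-gated cells showed the opposite order, with 43.0, 69.9, 90.4 and 144 CPM of C4b, so that WT was below Ccr2-/- on both days and the macrophage-gated cells of Ccr2-/- day 5 were above the fibroblast-gated cells of that pool. That last order rested on 1 cell, without which the macrophage-gated value was 114 CPM. The macrophage genotype effect was 1.08 ± 0.18 (SE; edgeR adjusted p = 0.1735), with 1.10 and an adjusted p of 0.002676 by DESeq2. Few macrophage-gated cells carried it: the tenth of the cells with the most C4b reads held 97.6%, 95.4%, 78.2% and 84.2% of them, and 1 cell held 21.9% in Ccr2-/- day 5. The make-up of the gate also differed between the genotypes. The Lyve1 group, described below as the subset with the most C4b, had 22 of 464 and 22 of 447 cells in WT. In Ccr2-/- it had 24 of 140 and 14 of 102 cells. Whether this make-up had a part in the order by genotype was not tested.

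Cfb, the factor B gene, had 788, 452, 942 and 673 CPM in fibroblast-gated cells. Day 3 was above day 5 in both genotypes, by 1.74 times in WT and 1.40 times in Ccr2-/-, and Ccr2-/- was above WT on both days, by 1.49 times on day 5. Perichondrial-gated cells, 39, 56 and 53 in the pools other than WT day 5, also carried Cfb, at 618 CPM in WT day 3, 970 CPM in Ccr2-/- day 3 and 612 CPM in Ccr2-/- day 5. The day effect had a log2 fold change of -0.65 ± 0.10 (SE; edgeR adjusted p = 0.7775) and the genotype effect 0.44 ± 0.10 (edgeR adjusted p = 0.1306). DESeq2 passed both, with adjusted p-values of 0.002874 and 0.03337. In summed reads the 3 fibroblast genes thus had 3 different orders over the pools. C3 stood low in 1 pool, C4b was ordered by genotype and Cfb by day and genotype. The median fibroblast-gated cell kept the Cfb order, with 392, 247, 475 and 393 CPM. For C4b the medians were 39.6, 7.84, 16.9 and 12.1 CPM, lowest in WT day 5 and so not ordered by genotype. In fibroblast-gated cells edgeR passed 0% of 20221 genes for either effect, 0 of the 8 members included, although 4147 genes had an unadjusted p below 0.05 for genotype (3 members among them) and 1247 for day (2 members). DESeq2 passed 1649 genes for genotype and 134 for day. The additive fit has 1 residual degree of freedom.

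**Figure D4:**
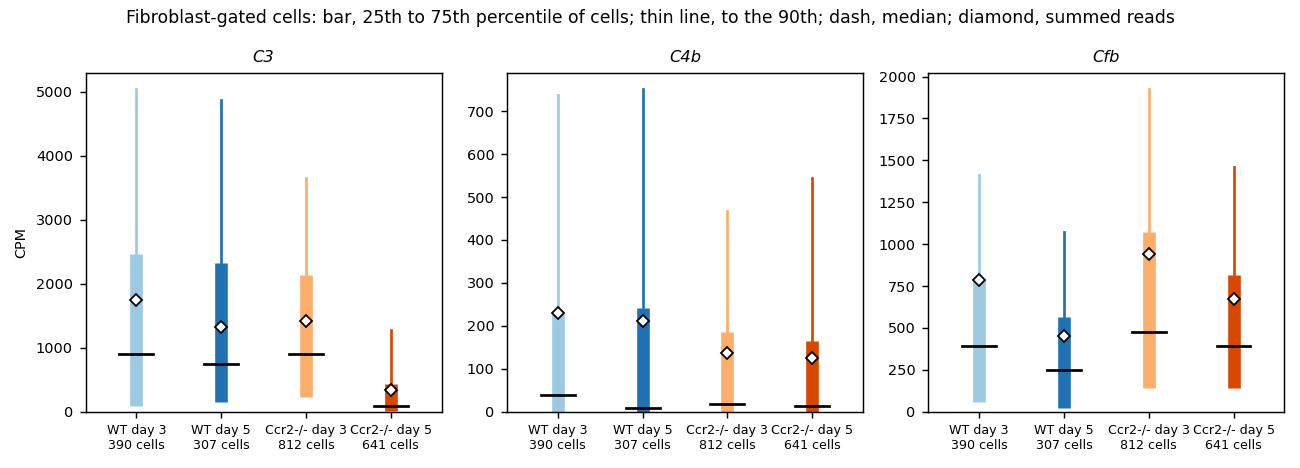
CPM of C3, C4b and Cfb in the fibroblast-gated cells of each pool: bars span the 25th to 75th percentile of cells, thin lines reach the 90th percentile, dashes are medians and diamonds are summed reads. The C3 distribution of Ccr2-/- day 5 lay below the other 3, with a 75th percentile of 429 CPM against 2137 to 2462 CPM.

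Fibroblast-gated cells were divided by Scara5 and by Saa3, genes chosen after the data had been seen, with a cell counted as positive at 2 reads and 100 CPM or more, to show whether the C3 difference lay in 1 kind of fibroblast. In Scara5-negative cells (292, 197, 727 and 545 in number) C3 had 1808, 1138, 1415 and 304 CPM. In Scara5-positive cells (98, 110, 85 and 96) it had 1426, 1678, 1420 and 756 CPM. In cells positive for Saa3, an acute-phase gene (93, 66, 249 and 261 cells), C3 had 1585, 1063, 1543 and 355 CPM. The Ccr2-/- day 5 value was the lowest of the 4 in each of these groups. Cfb, by contrast, was higher in Saa3-positive cells (1173, 783, 1336 and 860 CPM) than in Saa3-negative ones (594, 354, 719 and 513 CPM) in each pool. In Scara5-positive cells Cfb had 447, 432, 451 and 502 CPM, so that day 5 was above day 3 in Ccr2-/-, whereas Scara5-negative cells had 862, 462, 979.6 and 691 CPM, with day 3 above day 5 in both genotypes. C4b was ordered by genotype in Scara5-negative cells (234.5, 181, 129 and 114 CPM). It was not in Scara5-positive ones (209, 270.03, 232 and 245 CPM), where WT and Ccr2-/- values overlapped. Of the C4b reads in the Scara5-positive cells of WT day 5, 21.7% came from 1 cell.

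Fibroblast-gated cells exceeded endothelial-gated cells in all 3 of these genes (edgeR, pool as a block, in which 15.6% of 17542 genes passed, 8.98% higher and 6.6% lower), and the other 5 members did not pass. The median log2 fold change over all genes tested was 0.30 in this comparison. C3 had a log2 fold change of 6.26 ± 0.46 (SE; edgeR adjusted p = 4.147e-05), C4b of 6.47 ± 0.44 and Cfb of 3.26 ± 0.31. Endothelial-gated cells had 12.1 to 17.2 CPM of C3 and 1.05 to 4.04 CPM of C4b. Their Cfb level was 172, 54.9, 54.6 and 82.2 CPM, highest in WT day 3, and 56.0% of the WT day 5 reads came from 1 cell.

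Macrophage-gated cells also carried C3, at 135, 114, 41.6 and 61.0 CPM, and Cfb, at 97.5, 88.1, 62.8 and 53.9 CPM. Both genes were higher in both WT pools than in either Ccr2-/- pool. The summed fibroblast markers in these cells were 701, 817, 631 and 579 CPM, higher in WT as well, and the part of fibroblast RNA in these levels was not tested. The C3 ratio of WT to Ccr2-/- was 3.24 on day 3 and 1.87 on day 5, and the genotype effect was a log2 fold change of -1.27 ± 0.26 (SE; edgeR adjusted p = 0.1983). DESeq2 gave -1.25 with an adjusted p of 0.002167. The mean over cells in place of the sum raised the Ccr2-/- day 3 value to 87.3 CPM. For the genotype effect in macrophage-gated cells edgeR passed 0% of 16392 genes (2366 with an unadjusted p below 0.05, and 577 by DESeq2), and 0 of the 8 members (5 with an unadjusted p below 0.05, and 2 by DESeq2). For the day effect it passed 0% too (1185 with an unadjusted p below 0.05, and 96 by DESeq2), again with 0 of the 8 members (4 with an unadjusted p below 0.05, and 0 by DESeq2).

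Within the macrophage gate the members followed different subsets, which were defined by 1 marker each. The markers were Lyve1 for resident macrophages, Gpnmb and Pdcd1lg2 for late and early monocyte-derived macrophages and Ly6c2 for classical monocytes. A cell that met several markers was placed in 1 subset only, so that a subset may leave out cells with its marker. The Lyve1 group, with 22, 22, 24 and 14 cells, had 2869, 2552, 2183 and 2393 CPM of C1qa. Cells with Ly6c2, 137, 14, 18 and 7 in number, had 109, 310.2, 11.8 and 12.6 CPM. The Lyve1 group was above the Ly6c2 group in every pool, and the same held for C1qb and C1qc. Within the Lyve1 group the highest C1qa value in summed reads was that of WT day 3, the pool with the lowest value over all macrophage-gated cells. By the mean over cells WT day 5 was highest in this group (2960, 3228, 2443 and 2546 CPM). Cells with no subset marker (218, 354, 72 and 58) had 801, 1096, 988 and 1243 CPM, lowest in WT day 3. In summed reads C1qa in the Pdcd1lg2 group was lowest there too, at 242, 844, 285 and 280 CPM. By the mean over cells Ccr2-/- day 3 was slightly below WT day 3 in this group (182.5 against 185.8 CPM). C1qb and C1qc in the Pdcd1lg2 group were lowest in Ccr2-/- day 5, not in WT day 3. WT day 3 also held most of the Ly6c2 cells, and the part of subset make-up in its low value was not tested. C4b was also highest in the Lyve1 group, at 292, 398, 132 and 371 CPM, against 14.9, 72.4, 0 and 0 CPM in the Ly6c2 group. Within the Lyve1 group the summed C4b level was higher in WT than in Ccr2-/- on both days. This was the reverse of the order over all macrophage-gated cells. On day 5 the exact Poisson intervals overlapped, and 1 cell held 32.2% of the reads in WT and 38.1% in Ccr2-/-. The mean over cells kept WT higher on day 3 (243 against 166 CPM) but put Ccr2-/- higher on day 5 (468 against 362 CPM).

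C3 had the other order in WT day 3. Its level was 239 CPM in the Ly6c2 group and 43.0 CPM in the Lyve1 group of that pool, and 130.1 CPM in the Pdcd1lg2 group. The corresponding values were 110.3, 29.9 and 200.2 CPM in WT day 5, 77.5, 25.3 and 95.9 CPM in Ccr2-/- day 3 and 53.6, 56.3 and 92.7 CPM in Ccr2-/- day 5. The Lyve1 group was thus the lowest of these 3 groups in 3 of 4 pools, and no test was made because the groups are cells of the same pools. The Gpnmb group was found mainly in WT skin and held 5 and 15 cells there, with 1141 and 1580 CPM of C3ar1, above every other subset of those 2 pools. Of the WT day 3 reads 77.2% came from 1 of the 5 cells, and the mean over these cells was 793 CPM.

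**Figure D5:**
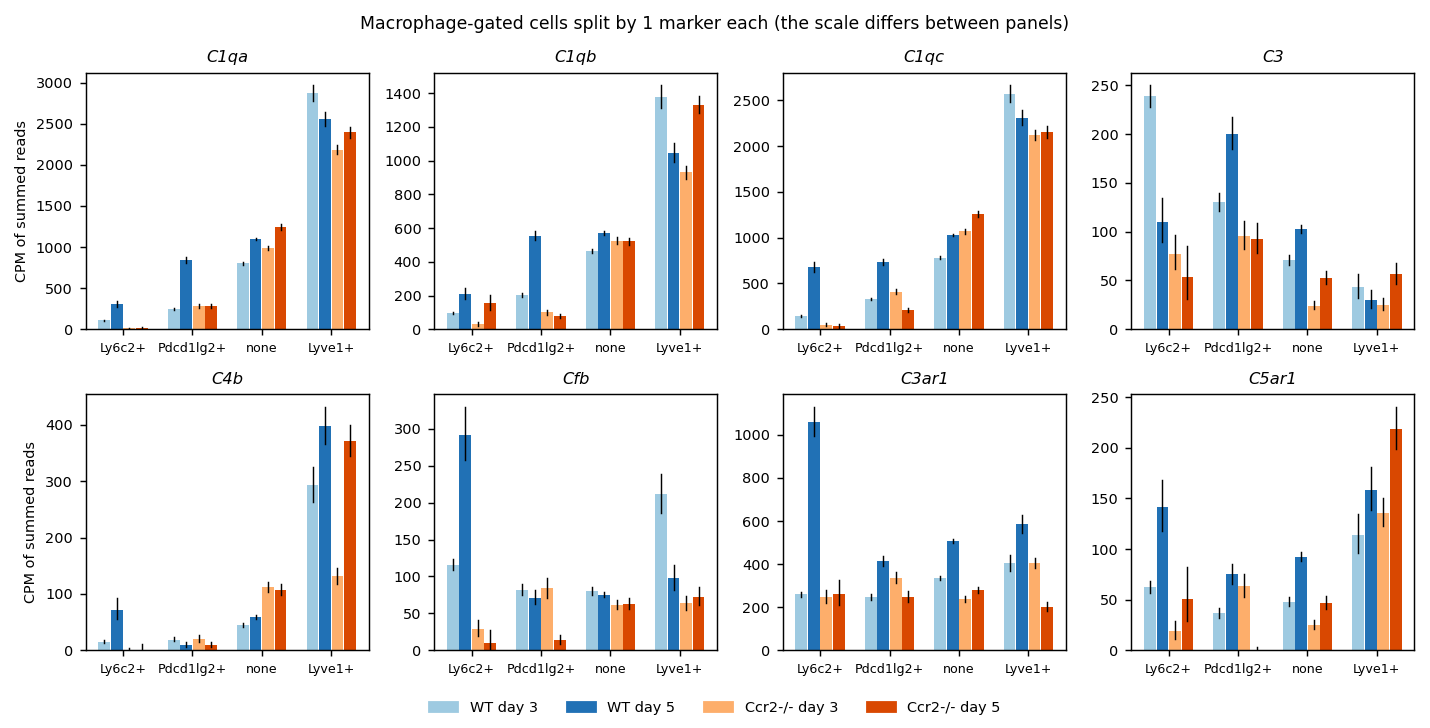
CPM of summed reads of the 8 genes in macrophage-gated cells of the Ly6c2, Pdcd1lg2 or Lyve1 group or with no subset marker (none), by pool. Lines are exact Poisson 95% intervals, and each panel has its own scale. C1qa in the Lyve1 group stood at 2183 to 2869 CPM, above all other groups shown.

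C3ar1, the receptor of C3a, had 309, 569, 295 and 255 CPM in macrophage-gated cells. WT day 5 was highest, and the other 3 pools lay within 255 to 309 CPM. At 5000 reads it was detected in 49.8%, 66.0%, 55.6% and 47.5% of macrophage-gated cells, against at most 0.779% of fibroblast-gated cells. WT day 5 had 1.84 times the level of WT day 3 and 2.23 times that of Ccr2-/- day 5. The genotype effect was a log2 fold change of -0.59 ± 0.29 (SE; edgeR adjusted p = 0.4317) and the day effect 0.34 ± 0.29 (edgeR adjusted p = 0.8461), neither past the threshold. Basophil-gated cells, present in 3 pools with 25, 61 and 60 cells, also had the receptor, at 81.9 CPM in WT day 3, 259 CPM in Ccr2-/- day 3 and 250 CPM in Ccr2-/- day 5.

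C5ar1, the receptor of C5a that guides neutrophils, had 986, 713 and 737 CPM in the neutrophil-gated cells of WT day 3, Ccr2-/- day 3 and Ccr2-/- day 5. The 9 WT day 5 cells gave 1804 CPM, of which 1 cell held 62.8%, and 852 CPM without it. Macrophage-gated cells had 55.1, 92.9, 56.7 and 76.7 CPM, below the neutrophil value in every pool. Basophil-gated cells had 104, 164 and 102 CPM in the same 3 pools as above. The Ccr2-/- pools had 18.2% and 33.1% neutrophil-gated cells against 3.95% and 0.868% in WT. Most C5ar1 reads lay in neutrophil-gated cells in Ccr2-/- and in macrophage-gated cells in WT, as the plot of read shares shows. The C5ar1 level over all cells of a pool was 25.5, 39.9, 26.2 and 49.3 CPM, which was not the order of the neutrophil-gated shares. Both receptors were detected in 7.64%, 18.2%, 8.27% and 5.94% of macrophage-gated cells at 5000 reads, and C3ar1 alone in 42.1%, 47.7%, 47.4% and 41.6%.

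In the comparison of macrophage-gated with neutrophil-gated cells, made over 3 pools without WT day 5, edgeR passed 39.4% of 15951 genes (27.1% higher and 12.3% lower in macrophage-gated cells) and all 8 members (6 higher and 2 lower), with a median log2 fold change over all genes of 0.63. C5ar1 was lower in macrophage-gated cells, with a log2 fold change of -3.67 ± 0.31 (SE; edgeR adjusted p = 0.0001364). The C1q genes were higher by 7.18 to 8.45 and C3ar1 by 6.08 ± 0.63. C4b was higher by 2.71 ± 0.70 (edgeR adjusted p = 0.0162), a call lost without Ccr2-/- day 5 (1.76, edgeR adjusted p = 0.1192), and 1 cell held 93.3% of the C4b reads of the WT day 3 neutrophil-gated cells. Cfb was higher by 1.36 ± 0.42 (edgeR adjusted p = 0.0318), a call lost without any 1 of the 3 pools (0.63 to 1.54, edgeR adjusted p = 0.1171 to 0.1554).

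C3 was higher in neutrophil-gated than in macrophage-gated cells, with a log2 fold change of -1.98 ± 0.62 (SE; edgeR adjusted p = 0.03349). This rested on Ccr2-/- day 3, without which it was -1.07 (edgeR adjusted p = 0.1303). Neutrophil-gated cells had 225 CPM of C3 in WT day 3, 653 CPM in Ccr2-/- day 3 and 163 CPM in Ccr2-/- day 5, and all C3 reads of the WT day 5 group came from 1 cell. At 5000 reads C3 was detected in 28.6%, 52.5% and 18.1% of these cells. The fibroblast markers in the same cells summed to 1657, 1215 and 1333 CPM, lower in Ccr2-/- day 3 than in Ccr2-/- day 5. In Ccr2-/- skin the C3 level was thus higher on day 3 than on day 5 in neutrophil-gated cells, as it was in fibroblast-gated cells; whether reads of fibroblast RNA had a part in this was not tested. NK-gated cells did not show that order, with 25.7 CPM on day 3 and 42.0 CPM on day 5.

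The endothelial-gated cells had too few reads for most members: only C3 and Cfb passed the filter on low counts, and neither had a genotype or day effect past the threshold of edgeR, an unadjusted p of 0.05 or the threshold of DESeq2. The Cfb genotype effect was a log2 fold change of -0.58 ± 0.60 (SE; edgeR adjusted p = 0.9998). In these cells edgeR passed 0.00882% of 11332 genes for genotype and 0% for day (333 with an unadjusted p below 0.05, and 6 by DESeq2).

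Of 40 further genes of the cascade, 38 had a row in the matrix and 15 reached 100 CPM in a gated type of at least 20 cells. Against fibroblast-gated cells, 34 of them were tested in macrophage-gated cells, of which 8 were higher and 16 lower (beside 17.6% higher and 24.2% lower over all genes), with a median log2 fold change of -1.61 (-0.09 over all genes). The enzymes that follow C1q were fibroblast genes: C1s1 had 350.4 to 558 CPM in fibroblast-gated cells and 7.05 to 10.9 CPM in macrophage-gated cells, C1ra had 195 to 279 and 11.4 to 17.1 CPM, and C2 had 78.1 to 152 and 9.29 to 16.3 CPM. C1rb, close in sequence to C1ra so that their reads may be shared, had 159 to 228 CPM in fibroblast-gated cells. Serping1, the inhibitor of the enzymes C1r and C1s, had 1055 to 1550.0 CPM there. Perichondrial-gated cells of 3 pools also carried C1s1 (231 to 384 CPM), C1ra (107 to 183 CPM) and Serping1 (648 to 1227 CPM).

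Cfp, the gene of properdin, which stabilises the alternative convertase, was instead found in macrophage-gated cells (267 to 515 CPM) and neutrophil-gated cells (118 to 438 CPM), with 2.37 to 9.79 CPM in fibroblast-gated cells. Itgam and Itgb2, which form complement receptor 3, had 1022 to 1172 and 372 to 471 CPM in neutrophil-gated cells and 349 to 602 and 163 to 250 CPM in macrophage-gated cells, and Itgax had 80.1 to 158 CPM in neutrophil-gated cells. Cd93 was highest in endothelial-gated cells (410.1 to 756 CPM). Of the membrane regulators, Cd55 peaked in mast-cell-gated cells (1015 CPM in Ccr2-/- day 3), Cd59a in perichondrial-gated cells (129 CPM in Ccr2-/- day 5) and Cr1l in endothelial-gated cells (160.5 to 258 CPM). Clu, the soluble regulator clusterin, peaked in perichondrial-gated cells (446 CPM in WT day 3). None of the other genes passed edgeR's threshold for genotype or day, with 24 tested in macrophage-gated, 32 in fibroblast-gated and 15 in endothelial-gated cells. For genotype in fibroblast-gated cells 10 of the 32 had an unadjusted p below 0.05, and DESeq2 passed 5, all lower in Ccr2-/-, where over all 20221 genes 4147 had such a p and DESeq2 passed 1649, of which 828 were lower.

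The pattern of each gene over cell types and pools was compared with that of 9755 genes by Pearson's r of log2(CPM + 1) over 34 sums of 11 gated types, all from 1 library, as a description. The C1q genes resembled each other (r = 0.95 to 0.96), and C1qa was closest to Fcna (0.97), the ficolin A gene, Cd209b (0.97) and Cd163 (0.96). C3 was closest to Tnfaip6 (0.85), Svep1 (0.83) and Pi16 (0.82), and C4b to Lrp1 (0.85), Dnm1 (0.84) and Abca9 (0.84). Cfb was closest to the overlapping Gm20547 (0.98), then Mxra7 (0.90) and Timp1 (0.90). C3ar1 was closest to Gpr34 (0.94), Npl (0.81) and Ccl9 (0.80), and C5ar1 to Igsf6 (0.95), Gm49368 (0.95) and Hk3 (0.94). Between the members, C3 and C4b gave 0.71, C4b and Cfb 0.67, and C3ar1 and C5ar1 0.53, while C1qa and C3 gave 0.06.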

How the data were processed

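The deposited cDNA matrix holds raw counts of reads (not molecules) for each gene and cell barcode, and a second matrix those for each hashtag. Per the authors' methods, Cutadapt trimmed the reads, Bowtie2 aligned them to Ensembl transcripts of GRCm38.p6, and the barcodes kept were those above the knee-plot inflection. A background correction they describe was not visible in the values (22.1% of those above 0 were 1). A further 9 hashtag columns were not used.

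A barcode was assigned to the hashtag whose share was at least 3 times the next, given 10 hashtag reads, 200 genes and at most 20% mitochondrial reads. The 570 barcodes with several hashtags were left out, and no doublet caller was run. A cell was gated where the mean over a marker list of log2((CPM + 10)/(median CPM + 10)), negatives set to 0, reached 2.5 for 1 list (or the more specific of nested lists); 247 mixed and 933 ungated cells were set aside. Subset cells had 2 reads and 100 CPM of the marker, and a cell that met several markers was placed under the first on a fixed list. The members and lists were chosen with earlier results of these data known, and the gate limit after marker scores were seen. All 8 members were named, with other complement genes at 100 CPM or more and the 3 genes most like each member; 1 such complement gene is not reported here.

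Reads were summed per gate and pool (at least 20 cells) and tested with edgeR 4.0.16 (TMM, filterByExpr, quasi-likelihood test, Benjamini-Hochberg adjustment), tested on simulated data first, with DESeq2 1.42.0 as an alternative. CPM carry exact Poisson and shares exact Clopper-Pearson 95% intervals, which cover counting error only. The replicates were pools of unknown numbers of mice.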

Additional observations from a re-analysis of the deposited data

Results flagged for a closer look

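In endothelial-gated cells Cfb went in opposite directions from day 3 to day 5 in the 2 genotypes, with a log2 ratio of day 5 to day 3 of -1.63 in WT and 0.58 in Ccr2-/- (172 and 54.9 CPM in WT, 54.6 and 82.2 CPM in Ccr2-/-). With 1 pool per genotype and day the difference was not tested. Gating by Leiden clusters raised the WT day 5 value to 163 CPM, and leaving out its leading cell lowered it to 26.7 CPM. C5ar1 in fibroblast-gated cells was likewise opposite, at -0.73 in WT and 0.53 in Ccr2-/-, at levels of 0.557 to 1.58 CPM, and this too was not tested.

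The cells that met no gate entered no comparison, but in Ccr2-/- day 5 they carried Cfb at 578 CPM, C3 at 227 CPM and C4b at 168 CPM, beside 29.2, 35.0 and 8.22 CPM in the ungated cells of WT day 5. Cfb reads were found in 41 of these 296 cells with at least 2 reads, and 1 cell held 38.3% of them. Their share of all Cfb reads in that pool was 6.08%.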

How the results depend on the processing

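Over the alternatives, 579 of 664 values compared for the members counted as unchanged. For a test this meant the same direction and side of the threshold. For a ratio of 1 pool pair, with no test, it meant a value within the SE of the fitted one. Of the rest, 7 lost a call, 16 gained one, 25 turned in sign and 37 ratios of 1 pool pair lay beyond that SE. The causes were not tested.

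The number of genes called for genotype in macrophage-gated cells was 577 with DESeq2, 740 with no filter, 6 without the deepest cells and 19 at a gate score of 2 (0 in the text). For day it was 96 with DESeq2 and 124 with no filter. In fibroblast-gated cells it was 1649 with DESeq2 and 747 with no filter for genotype, and 134 with DESeq2 for day. In endothelial-gated cells it was, for genotype, 23 with DESeq2, 42 with no filter, 24 at a hashtag ratio of 10, 12 with Leiden clusters, 3 without the deepest cells, and 2 and 9 at gate scores of 2 and 3.5, and for day 6, 20, 10, then 1 with library sizes only, 1 without the deepest cells, and 2 at either gate score. The gate scores of 2 and 3.5 and the leave-out of a leading cell were chosen after the data were seen. Fibroblast-gated against endothelial-gated cells gave 4470 with DESeq2 and 1787 (without Ccr2-/- day 5) to 2520 (without WT day 5) when a pool was left out. Macrophage-gated against neutrophil-gated cells gave 3680 (without Ccr2-/- day 5) to 7110 (without WT day 3), with 3690 without Ccr2-/- day 3, and against fibroblast-gated cells 6317 to 6936. Without the pool as a replicate block these comparisons called 3717, 7363 and 7567 genes, and C4b then passed against fibroblast-gated cells (-1.12, adjusted p = 0.02669) with no other call of a member moved. The block pairs the cell types of 1 pool.

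Signs turned among results that were not called in the text. In fibroblast-gated cells the genotype effect of C5ar1 became 0.31 with Leiden clusters and 0.58 without the deepest cells. The day effect there became, with Leiden clusters, 0.60 for C1qa, 0.54 for C1qc, -0.17 for C3ar1 and 0.42 for C5ar1, without the deepest cells 0.030 for C4b and 0.31 for C5ar1, and at a gate score of 3.5, 0.40 for C1qa, 0.23 for C1qb, 0.67 for C1qc and 0.30 for C5ar1. The genotype effect of C5ar1 in macrophage-gated cells became 0.12 with Leiden clusters. In endothelial-gated cells C3 became -0.11 for genotype at 3.5 and Cfb 0.34 for day without the deepest cells. Fibroblast-gated against endothelial-gated cells, Leiden clusters gave -1.08 for C1qa, -1.03 for C1qc, -1.33 for C3ar1 and -3.17 for C5ar1 (adjusted p = 0.01311), C1qb became 1.18 without the deepest cells, and C5ar1 -0.073 with library sizes only, -0.71 without the deepest cells, -0.63 without the block, and from -0.82 (without Ccr2-/- day 5) and -0.52 (without Ccr2-/- day 3) to 1.14 (without WT day 5) when a pool was left out.

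Of 305 alternative CPM values for groups of at least 20 CPM, 11 moved by over 1.5 times, 6 of them in neutrophil-gated WT cells. Depth limits C1q and C3ar1 in fibroblast-gated, endothelial-gated and neutrophil-gated cells, where no group of at least 20 cells was above 9.68 CPM.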
